A study of Mus musculus with 24 samples.

Results

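Messenger RNA of 9 hepatocyte identity transcription factor genes was followed in hepatocytes of 24 aged male mice: Hnf4a, Foxa1, Foxa2, Foxa3, Cebpa, Cebpb, Onecut1, Prox1 and Trim24. The genes were chosen by name, 9 of the 55421 rows of the gene tables, and all 9 passed the filter on low counts that left 13847 genes to test. C57BL/6J mice ate food with vehicle or with eRapa (rapamycin encapsulated in eudragit, 42 ppm) starting at an age of 4 months. When they were 18 months old, the vehicle animals either stayed on normal diet (ND + veh, n = 8) or moved to a high-fat diet with 60% of calories from fat (HFD + veh, n = 7), the rapamycin animals moved to the high-fat diet with eRapa (HFD + eRapa, n = 9), and the diets ran for 9 weeks. No animals on normal diet with rapamycin were analysed here, so HFD + eRapa differed from ND + veh in both diet and drug. Hepatocytes were released by a perfusion in 2 steps and polyadenylated RNA was sequenced. Because these are bulk samples, fewer cells of a type and less RNA per cell cannot be told apart.

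The liver-enriched factors form a network in which each binds regulatory DNA of the others as well as of the genes that make a hepatocyte. FOXA proteins open closed chromatin early in liver development, HNF4A is the nuclear receptor on which much of the mature hepatocyte program depends, and C/EBP proteins drive metabolic and acute phase genes. Rapamycin inhibits the kinase complex mTORC1, a nutrient sensor that promotes cell growth and protein synthesis.

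Libraries held 17.7 to 25.9 M counts (M, 1000000). Albumin (Alb), the most abundant hepatocyte secretory transcript, lay between 31430 and 128000 counts per M counts (CPM) in all animals. Its mean was 94290 ± 27510 CPM in ND + veh, 102200 ± 19140 in HFD + veh and 71090 ± 23410 in HFD + eRapa (SD). Alb was thus lowest on average in HFD + eRapa and was not an even reference. The hepatocyte marker list as a whole was near the median of all genes in its differences between groups, with medians between -0.10 and 0.03 on the log2 scale. Markers of other cells were not equal between groups. The summed macrophage markers had a median of 297 CPM in ND + veh (52.4 to 1569), 2960 in HFD + veh (198 to 5886) and 236 in HFD + eRapa (19.4 to 1230). An immune marker score, the mean z over 20 macrophage, neutrophil and lymphocyte genes that passed the filter, had medians of -0.294, 1.28 and -0.265 in these groups. ND + veh replicate 4 had the lowest Alb of its group and the highest library scaling factor (1.295), and HFD + veh replicate 6 had the highest immune marker score of all libraries (1.70). Values without these 2 libraries are given beside the results they change.

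Promoter sequence is shown for the 4 genes whose level was called different in both comparisons that hold HFD + veh, and for Hnf4a, the nuclear receptor gene of the same network, which was called in neither. The runs lie upstream of the start sites that RefSeq annotates on GRCm38.p6 (the mm10 assembly), are written 5′ to 3′ on the strand of the gene and leave out annotated exons. Capitals mark matches to core motifs of the network, searched on both strands.
Foxa1, chr12:57546122-57546361, minus strand: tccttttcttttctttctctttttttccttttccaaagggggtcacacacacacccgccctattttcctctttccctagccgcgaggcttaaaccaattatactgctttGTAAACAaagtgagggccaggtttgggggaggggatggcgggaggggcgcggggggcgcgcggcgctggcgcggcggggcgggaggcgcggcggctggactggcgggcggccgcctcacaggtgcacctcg
Foxa2, chr2:148046970-148047219, minus strand: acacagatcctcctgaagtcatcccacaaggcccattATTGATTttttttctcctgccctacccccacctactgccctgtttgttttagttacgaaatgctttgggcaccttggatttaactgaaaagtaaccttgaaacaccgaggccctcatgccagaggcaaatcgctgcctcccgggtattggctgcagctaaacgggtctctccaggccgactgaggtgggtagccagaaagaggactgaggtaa
Cebpb, chr2:167688665-167688914, plus strand: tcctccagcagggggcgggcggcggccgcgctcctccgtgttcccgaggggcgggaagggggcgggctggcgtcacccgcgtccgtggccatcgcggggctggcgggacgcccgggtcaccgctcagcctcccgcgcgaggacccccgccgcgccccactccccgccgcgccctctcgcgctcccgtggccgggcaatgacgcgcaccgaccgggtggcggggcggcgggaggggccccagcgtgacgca
Onecut1, chr9:74861671-74861920, plus strand: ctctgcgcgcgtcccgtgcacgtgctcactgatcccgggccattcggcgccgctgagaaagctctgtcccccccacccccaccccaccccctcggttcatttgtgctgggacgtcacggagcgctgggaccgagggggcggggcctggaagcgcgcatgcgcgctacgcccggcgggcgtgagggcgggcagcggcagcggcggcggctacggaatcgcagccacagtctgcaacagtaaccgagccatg
Hnf4a, first of its 2 start sites, chr2:163506607-163506807, plus strand: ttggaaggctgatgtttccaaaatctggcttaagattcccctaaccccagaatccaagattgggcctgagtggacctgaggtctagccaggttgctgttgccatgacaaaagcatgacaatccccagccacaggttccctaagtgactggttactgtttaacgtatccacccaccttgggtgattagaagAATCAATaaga

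The Foxa1 run held the FOXA core TGTTTAC on the strand opposite to the gene, 141 bases before the start site. In the Gencode M21 annotation Foxa1 spans 57540628 to 57546916, so this run lies inside the gene there. TGTTTAC was present in 3.65% of 32851 promoter windows of 300 bases, and in 1 of the 14 windows of the 9 genes. The Foxa2 run held ATTGATT, the core bound by HNF6 (the Onecut1 protein), 213 bases before the start, a motif in 2.86% of all windows. Foxa2 has further annotated start sites, whose windows held no match and are not printed. The Hnf4a run, which belongs to the first of its 2 annotated start sites, held the same core on the opposite strand, 60 bases before that start. The window of the second Hnf4a start site held no match and is not printed. For Foxa2 and Hnf4a the printed run was thus picked because it held a match. Which start site these hepatocytes used was not measured. The FOXA variant TGTTTGC (5.07% of windows) was found only in 1 Prox1 window. Neither the HNF4A core CAAAGTCCA (0.475%) nor the palindrome TTGCGCAA of C/EBP (0.183%) matched any of the 14 windows, and the printed Cebpb and Onecut1 runs held no match. The Cebpb and Onecut1 runs were richer in G and C (81.6% and 71.6%) than the Foxa2 run (50.8%).

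On a length-normalised scale (FPKM, fragments per kilobase and per M mapped), Cebpa was the highest of the 9 genes, with 217 ± 58.6 FPKM in ND + veh (SD, n = 8). It was above Hnf4a in all 24 animals. Hnf4a (121.5 ± 25.9 FPKM) and Cebpb (121 ± 47.8 FPKM) followed in ND + veh and did not differ beyond their spread, since Hnf4a was the higher in 5 of 8 animals. Foxa2 (24.6 ± 6.72 FPKM) and Foxa3 (22.3 ± 7.06 FPKM) came next, also in an order that 2 of 8 animals broke. Onecut1 (9.25 ± 6.05 FPKM), Prox1 (9.10 ± 4.26 FPKM) and Foxa1 (7.73 ± 2.02 FPKM) were within one another's spread, and Trim24 (5.16 ± 1.64 FPKM) was the lowest. In HFD + veh Onecut1 was the lowest at 2.77 ± 2.25 FPKM (SD, n = 7), beside Foxa1 at 3.04 ± 1.36 FPKM.

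**Figure D1:**
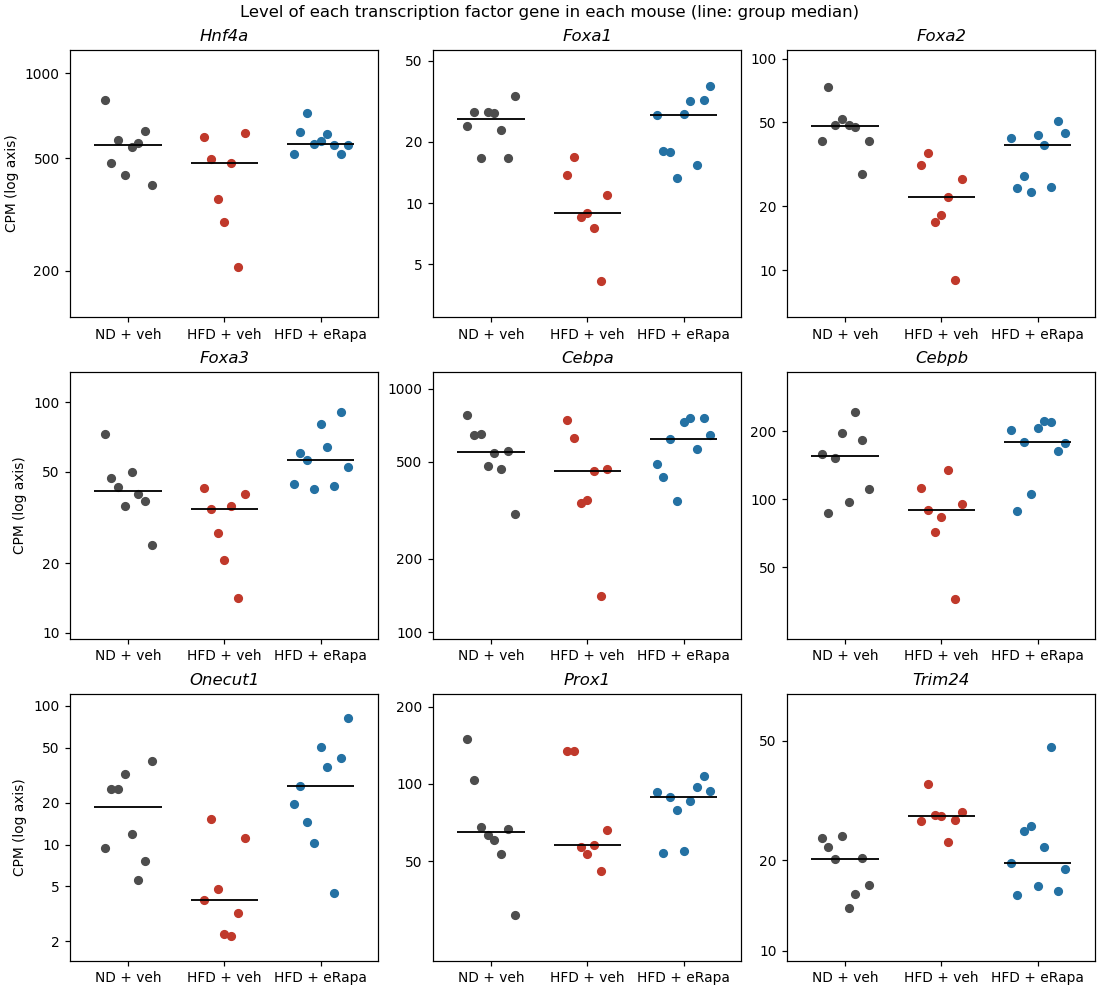
CPM of each gene in each mouse, on a log axis, for ND + veh (grey, n = 8), HFD + veh (red, n = 7) and HFD + eRapa (blue, n = 9), with a line at each group median. Foxa1 and Foxa2 sit lower in HFD + veh than under ND + veh, Onecut1 has the widest spread, and in no panel are neighbouring groups fully apart.

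The first question was what the high-fat diet did to these genes in aged animals. HFD + veh differed from ND + veh for 5 of the 9 genes at an adjusted p under 0.05 (edgeR, Benjamini-Hochberg over all genes tested, termed called from here on), against 25.9% of all genes tested. Foxa1, Foxa2, Cebpb and Onecut1 were lower (4 of 9, where 9.86% of all genes were lower) and Trim24 was higher (1 of 9, where 16.0% of all genes were higher). The median log2 fold change was -0.51 over the 9 genes and 0.05 over all genes tested. No gene of the 9 had groups that did not overlap, a state found for 2.44% of all genes. The same held for HFD + eRapa against HFD + veh (2.59% of all genes) and against ND + veh (3.37%).

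Onecut1 encodes HNF6, a cut-homeodomain factor of bile duct and hepatocyte development. It had 5.55, 18.5 and 39.8 CPM as lowest, median and highest value in ND + veh, 2.18, 3.97 and 15.2 CPM in HFD + veh, and 4.49, 26.6 and 81.6 CPM in HFD + eRapa. All 7 HFD + veh animals lay below the ND + veh median and 5 lay below its lowest animal. The lowest and highest animals of the study, HFD + veh replicate 5 and HFD + eRapa replicate 9, differed by a factor of 37.5, the widest range of the 9 genes. Onecut1 was lower in HFD + veh than under ND + veh, the log2 fold change being -1.69 (SE 0.571, adjusted p = 0.0331), and HFD + eRapa was above HFD + veh by 2.38 (SE 0.576, adjusted p = 0.00416). The call between the diets was lost in 5 of 11 other settings, among them the fit without the 2 libraries named above (-1.44, adjusted p = 0.112), and when any one of 8 single libraries was left out. The eRapa call was kept in 10 of 11 settings and in all 24 fits that left out 1 library.

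The 3 FOXA genes encode forkhead factors that bind nucleosomal DNA and share a DNA motif. Foxa1 had 16.7, 25.9 and 33.6 CPM as lowest, median and highest value in ND + veh, 4.13, 8.97 and 16.8 CPM in HFD + veh, and 13.3, 27.2 and 37.8 CPM in HFD + eRapa. Of the 7 HFD + veh animals 6 lay below every ND + veh animal, and HFD + veh replicate 2 fell just inside the ND + veh range. The difference between the diets was -1.29 (SE 0.257, adjusted p = 0.00158), a level 0.408 times that of ND + veh. Of the 9 HFD + eRapa animals 7 lay above every HFD + veh animal, with a log2 fold change of 1.28 (SE 0.252, adjusted p = 0.000995). Both calls of Foxa1 were kept in all 11 other settings and in all 24 fits without 1 library. HFD + eRapa and ND + veh overlapped and differed by -0.01 (SE 0.234, adjusted p = 0.986). Both comparisons with HFD + veh use the same 7 animals, so they are not independent of each other.

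Foxa2, the forkhead factor best known for control of hepatic lipid and glucose metabolism, had 28.4, 47.9 and 73.3 CPM as lowest, median and highest value in ND + veh. The values were 9.02, 22.2 and 35.7 CPM in HFD + veh and 23.5, 39.1 and 50.7 CPM in HFD + eRapa. Every HFD + veh animal lay below the ND + veh median, and the groups overlapped in 2 HFD + veh animals. Foxa2 was lower in HFD + veh, with a log2 fold change of -1.05 (SE 0.242, adjusted p = 0.0045), a call kept in all 11 settings and all 24 fits without 1 library. It was higher in HFD + eRapa than under HFD + veh by 0.64 (SE 0.235, adjusted p = 0.0412), but this call was lost in 7 of 11 settings and in 9 of 24 fits without 1 library, and without the 2 libraries named above it stood at an adjusted p of 0.0903. Of the 9 HFD + eRapa animals 8 were below the ND + veh median, with a log2 fold change of -0.42 (SE 0.222, adjusted p = 0.246).

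Foxa3, the FOXA gene most restricted to endoderm-derived tissue, had 24.03, 41.3 and 72.5 CPM in ND + veh, 14.1, 34.5 and 42.3 CPM in HFD + veh, and 41.8, 56.3 and 90.1 CPM in HFD + eRapa (lowest, median, highest). The HFD + veh animals overlapped the ND + veh animals, whereas 8 of 9 HFD + eRapa animals lay above every HFD + veh animal. Foxa3 was not called between the diets (-0.51, SE 0.229, adjusted p = 0.0981), but it passed when ND + veh replicate 8 was left out (adjusted p = 0.0455). It was higher in HFD + eRapa than under HFD + veh by 0.95 (SE 0.226, adjusted p = 0.00353), a call kept in 10 of 11 settings and in all 24 fits without 1 library. All 9 HFD + eRapa animals were above the ND + veh median, without a call (0.44, SE 0.214, adjusted p = 0.194).

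Summed over the family, FOXA transcripts came to 54.6 ± 11.1 FPKM in ND + veh, 30.1 ± 9.53 in HFD + veh and 52.7 ± 13.5 in HFD + eRapa (SD, n = 8, 7 and 9). The makeup of that sum was not the same in the groups. Foxa2 was 45.0 ± 6.96% of the sum in ND + veh, 39.0 ± 3.55% in HFD + veh and 33.6 ± 5.16% in HFD + eRapa. Foxa3 was 40.6 ± 9.02%, 51.2 ± 5.26% and 53.2 ± 7.41% in the same order, and Foxa1 was 14.4 ± 4.09%, 9.88 ± 1.95% and 13.2 ± 2.83%. These shares are given as a description and were not tested.

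**Figure D2:**
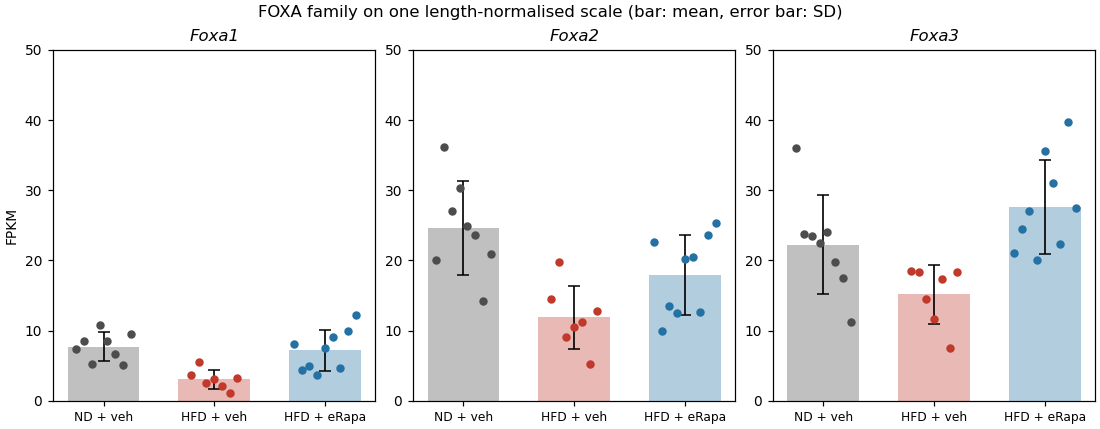
FPKM of Foxa1, Foxa2 and Foxa3 by group on 1 shared axis from 0, with a point for each mouse, a bar at the mean and an error bar of 1 SD. The family sum averages 54.6 FPKM in ND + veh and 30.1 FPKM in HFD + veh. Foxa2 is above Foxa3 in 6 of 8 ND + veh mice, and Foxa3 is above Foxa2 in 6 of 7 HFD + veh and 8 of 9 HFD + eRapa mice.

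C/EBPα and C/EBPβ are basic leucine zipper factors that bind the same DNA element and are known to trade places during the acute phase response. Cebpb, the inducible one, had 87.1, 156 and 245 CPM as lowest, median and highest value in ND + veh, 36.1, 89.5 and 135 CPM in HFD + veh, and 88.8, 180 and 222 CPM in HFD + eRapa. Of the 7 HFD + veh animals 3 were below every ND + veh animal, and all 7 were below the ND + veh median. Cebpb was lower in HFD + veh, with a log2 fold change of -0.79 (SE 0.252, adjusted p = 0.0254). That call was lost in 4 of 11 settings, among them the fit without the 2 libraries (adjusted p = 0.0727) and the fit with an early stress score as a covariate (adjusted p = 0.172), and when ND + veh replicate 6 was left out (adjusted p = 0.0579). HFD + eRapa was above HFD + veh by 0.97 (SE 0.248, adjusted p = 0.00558), a call kept in 10 of 11 settings and in all 24 fits without 1 library. Reads of Cebpb and of the overlapping Tmem189, on the opposite strand with 178 to 549 counts, cannot be told apart without strand, and the counting mode was not given in the sources used here.

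Cebpa, whose mean FPKM was the higher of both in every group, had 307, 550 and 781 CPM in ND + veh, 141, 457 and 740 CPM in HFD + veh, and 345, 620 and 756 CPM in HFD + eRapa (lowest, median, highest). The groups overlapped widely and Cebpa was called in no comparison, at -0.31 between the diets (SE 0.251, adjusted p = 0.367) and 0.41 for eRapa against HFD + veh (SE 0.245, adjusted p = 0.206). The log2 ratio of Cebpb to Cebpa within an animal was -1.88 ± 0.665 in ND + veh, -2.26 ± 0.386 in HFD + veh and -1.78 ± 0.334 in HFD + eRapa (SD). The ratio differed by 0.48 between HFD + eRapa and HFD + veh (two-sided exact permutation p = 0.0208, adjusted over the 3 comparisons p = 0.0624). The difference between the diets was -0.38 (exact permutation p = 0.202, adjusted p = 0.303), so neither passed.

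Hnf4a had 402, 557 and 807 CPM as lowest, median and highest value in ND + veh, 206, 482 and 616 CPM in HFD + veh, and 517, 562 and 725 CPM in HFD + eRapa. HFD + veh overlapped both groups, and HFD + veh replicates 3, 4 and 6 were below every ND + veh animal. The spread between animals ran from a coefficient of variation of 10.98% in HFD + eRapa to 22.8% in ND + veh and 35.2% in HFD + veh. Hnf4a was called in no comparison, at -0.35 between the diets (SE 0.184, adjusted p = 0.157) and 0.42 for HFD + eRapa against HFD + veh (SE 0.179, adjusted p = 0.0771). The second passed when HFD + veh replicate 1 or 7 was left out (lowest adjusted p = 0.0297). Counts were summed over the gene, so the transcripts of its 2 start sites were not separated.

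Prox1, a homeobox factor of hepatoblast migration that also marks lymphatic endothelium, had 30.8, 65.1 and 150 CPM in ND + veh, 46.0, 57.8 and 134 CPM in HFD + veh, and 53.9, 89.1 and 108 CPM in HFD + eRapa (lowest, median, highest). The groups overlapped throughout, and no comparison was called (0.07 between the diets, SE 0.278, adjusted p = 0.866). Of 5 lymphatic endothelial markers 3 passed the filter, and all 3 were lower in HFD + eRapa than under HFD + veh, where 21.1% of all genes were lower. Of these, Lyve1 is also in the endothelial list and Reln in the stellate cell list, and Ccl21a was at 0 in every library. The list therefore does not measure lymphatic endothelium alone. The estimate for Prox1 in that comparison was 0.10 (SE 0.272, adjusted p = 0.81).

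Trim24 encodes a chromatin reader that binds nuclear receptors and restrains retinoic acid receptor activity in mouse liver. It had 13.9, 20.2 and 24.1 CPM as lowest, median and highest value in ND + veh, 23.1, 28.1 and 35.8 CPM in HFD + veh, and 15.4, 19.6 and 47.8 CPM in HFD + eRapa. Of the 7 HFD + veh animals 6 were above every ND + veh animal. Trim24 was higher in HFD + veh than under ND + veh, the log2 fold change being 0.54 (SE 0.194, adjusted p = 0.0443), a call lost in 7 of 11 settings and in 14 of 24 fits without 1 library, and without the 2 libraries named above it stood at an adjusted p of 0.0729. Of the 9 HFD + eRapa animals 6 were below every HFD + veh animal and replicate 7 was above them all. The difference of -0.30 (SE 0.188, adjusted p = 0.224) passed without HFD + eRapa replicate 7 (-0.51, adjusted p = 0.00876). That animal also had the lowest Onecut1 and the lowest Alb of its group. Among retinoic acid signalling genes Dhrs3, a retinal reductase, was lower in HFD + veh (-0.58, adjusted p = 0.00607). Rxra, the partner of retinoic acid receptors, was higher in HFD + eRapa (0.55, adjusted p = 0.0364), while against ND + veh Dhrs3 was lower (-0.44) in that group.

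The second question was how the levels on the high-fat diet differed with rapamycin. Without a normal-diet group on rapamycin, a change in the diet's effect itself could not be measured. HFD + eRapa differed from HFD + veh for 5 of the 9 genes, all of them higher (Foxa1, Foxa2, Foxa3, Cebpb and Onecut1), where 32.0% of all genes were called, 10.9% as higher and 21.1% as lower. The median log2 fold change was 0.64 over the 9 genes and -0.04 over all genes. Against ND + veh, the HFD + eRapa animals were called for none of the 9 genes by edgeR, by DESeq2 or by limma on log2 FPKM, where 13.5% of all genes were called by edgeR (6.93% higher, 6.54% lower), and 0 of the 9 had an unadjusted p under 0.05 in edgeR.

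**Figure D3:**
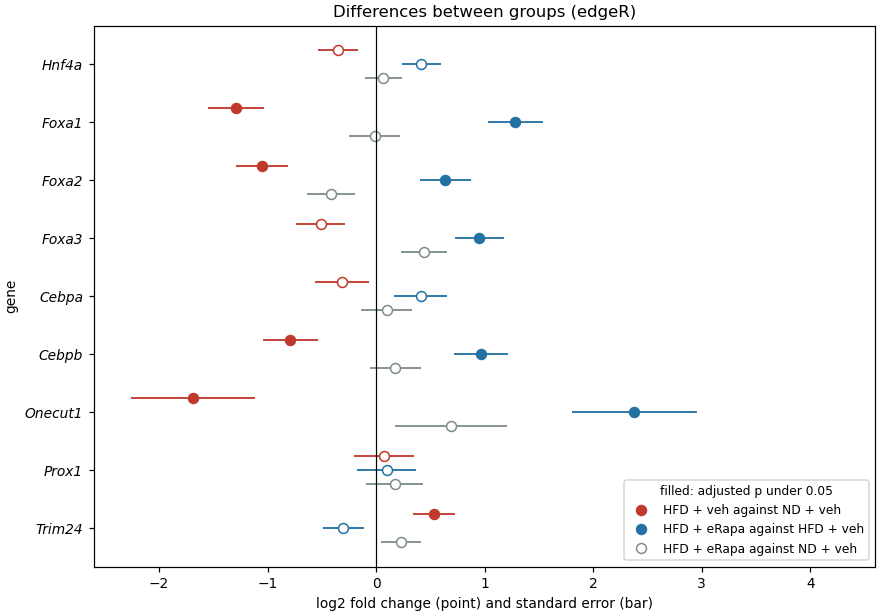
Log2 fold change of each gene in the 3 comparisons (points) with its standard error (bars) from edgeR, filled where the adjusted p is under 0.05. Foxa1, Foxa2, Cebpb and Onecut1 are filled on the left for HFD + veh against ND + veh and on the right for HFD + eRapa against HFD + veh, and no grey point is filled.

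Animals of HFD + veh differed among themselves. Of the 9 genes, 7 were below the ND + veh range in replicate 6, 6 in replicate 4, 5 in replicate 3, 3 in replicate 5, 2 in replicates 1 and 7, and none in replicate 2. Replicates 3, 4, 5 and 6 were also the 4 libraries of this group with an immune marker score above 1, while replicates 1 and 2 had scores below 0. In HFD + eRapa, replicate 7 had 3 genes below the ND + veh range (Foxa1, Foxa2 and Onecut1), and replicates 5, 8 and 9 had Onecut1 above it.

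The immune markers moved with these results. With that score added to the fit as a covariate, Foxa1 stayed called in both comparisons (-1.05, adjusted p = 0.00316 between the diets; 0.90, adjusted p = 0.019 for eRapa) and Foxa2 stayed called between the diets (-0.73, adjusted p = 0.0188). Foxa2 was no longer called for eRapa (0.22, adjusted p = 0.574), nor were Foxa3 (0.49, adjusted p = 0.116), Cebpb (0.77, adjusted p = 0.101) and Onecut1 (1.78, adjusted p = 0.0888). Between the diets Cebpb (-0.65, adjusted p = 0.136), Onecut1 (-1.41, adjusted p = 0.134) and Trim24 (0.58, adjusted p = 0.0937) were not called with this covariate. The genes that were not called without the covariate moved as well. Between the diets Foxa3 went to -0.097 (adjusted p = 0.808), Hnf4a to -0.15 (adjusted p = 0.678) and Prox1 to 0.57 (adjusted p = 0.092). For eRapa against HFD + veh Hnf4a stood at 0.20 (adjusted p = 0.543). The score differs between the groups, and whether other cells or a change within hepatocytes moved these genes was not tested.

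**Figure D4:**
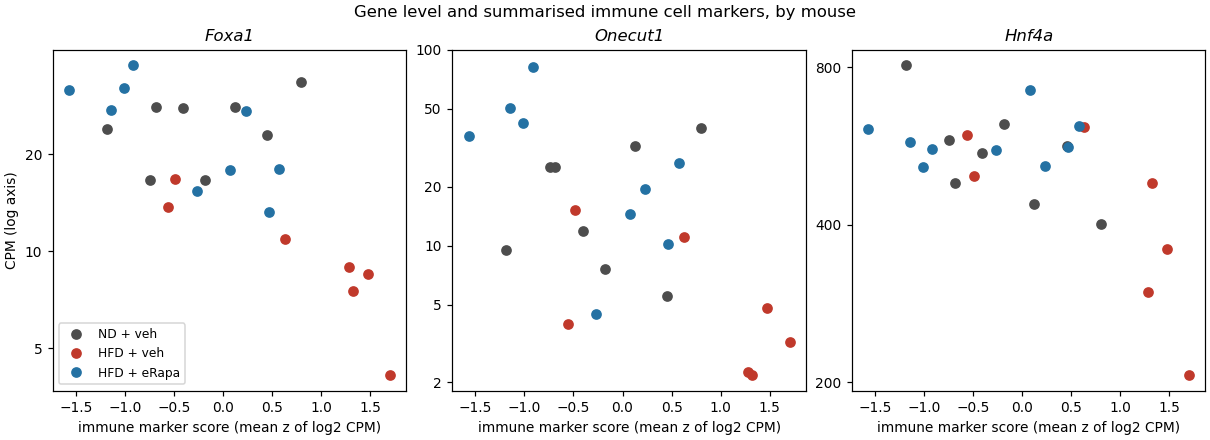
CPM (log axis) of Foxa1, Onecut1 and Hnf4a against the immune marker score of each mouse, colored by group. The HFD + veh mouse with the highest score (1.70) has the lowest Foxa1 (4.13 CPM) and Hnf4a (206 CPM) of all. The lowest Onecut1 (2.18 CPM) is in another HFD + veh mouse (score 1.32). The ND + veh mouse with the highest score of its group (0.799) has that group's highest Foxa1 (33.6 CPM) and Onecut1 (39.8 CPM) and its lowest Hnf4a (402 CPM). Below a score of 1 the HFD + veh and ND + veh points of Hnf4a overlap.

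**Figure D5:**
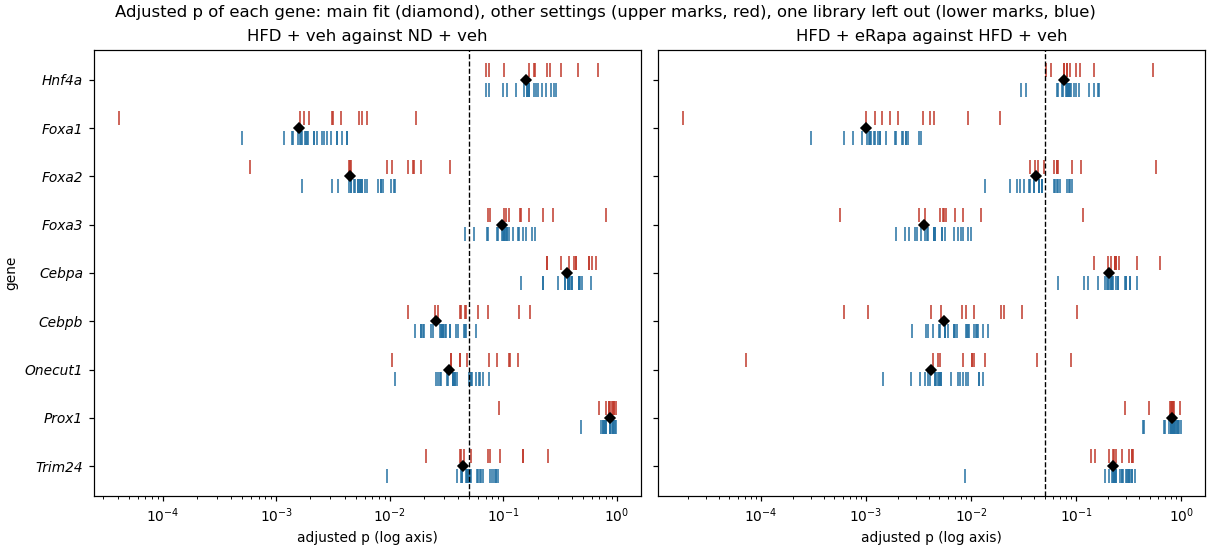
Adjusted p (log axis) of each gene in the comparisons of HFD + veh with ND + veh and of HFD + eRapa with HFD + veh, for the reported fit (diamond), 11 other settings (red) and 24 fits without 1 library (blue), with a dashed line at 0.05. All marks of Foxa1 lie left of the line in both panels, and those of Trim24, Onecut1 and Cebpb in the left panel lie on both sides.

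The other markers that could share these samples moved as follows, where 16.0% of all genes were higher in HFD + veh than under ND + veh and 21.1% were lower in HFD + eRapa than under HFD + veh. Of 12 macrophage markers 4 were higher in HFD + veh than under ND + veh and 10 were lower in HFD + eRapa than under HFD + veh, among them Adgre1 (3.11 and -3.20). Cd5l rose in HFD + veh (3.05) and Marco fell with eRapa (-3.41). Of 8 neutrophil markers 4 passed the filter. Of these 2 rose, S100a8 (4.84) and S100a9 (3.41), and 2 fell with eRapa, Csf3r (-2.65) and S100a8 (-2.51). S100a8 averaged 0.131 CPM in ND + veh and 3.93 in HFD + veh, and S100a9 averaged 0.425 and 4.57. Their ND + veh levels were near the floor, so the size of these changes rests on few counts. Of 11 lymphocyte markers 4 passed the filter. Of these 3 rose, led by Ptprc (3.55) and Trbc2 (3.06, with a mean of 0.173 CPM in ND + veh), and 3 fell with eRapa. Of 10 endothelial markers 2 rose, Vwf (2.72) and Pecam1 (1.41), and all 10 fell with eRapa. Of 10 stellate cell markers 9 passed the filter, of which 3 rose, led by Col1a1 (2.63), and all 9 fell with eRapa. Of 8 cholangiocyte markers 4 passed the filter, of which 3 rose, with Spp1 at 5.31, and Spp1 fell with eRapa (-2.68). In HFD + eRapa against ND + veh 6.54% of all genes were lower and 6.93% higher. There 4 of the 9 stellate cell markers were lower, led by Reln (-1.77) and Pdgfrb (-1.69). Of the 10 endothelial markers only Eng (-1.10) was lower, and of the 4 cholangiocyte markers only Spp1 (2.64) was higher. Of these markers, only the immune and the cholangiocyte ones entered a covariate fit, and no endothelial or stellate cell score was fitted. Beyond those fits, the part of other cells in the levels of the 9 genes was not tested.

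Among the closest relatives of the 9 genes, 8 of 11 passed the filter, and Hnf4g, Onecut3 and Trim66 did not. Trim28, a corepressor related to Trim24, was lower in HFD + veh than under ND + veh (-0.46, SE 0.118, adjusted p = 0.00909), as was Cebpg, a C/EBP partner without an activation domain (-0.30, SE 0.104, adjusted p = 0.0342). Onecut2 had 57.0, 62.9 and 89.4 CPM in ND + veh, 30.0, 46.7 and 92.0 in HFD + veh, and 77.4, 89.7 and 149 in HFD + eRapa (lowest, median, highest). Of the 7 HFD + veh animals 6 lay below every HFD + eRapa animal, and replicate 2 lay inside the range of that group. Onecut2 was higher in HFD + eRapa than under HFD + veh (0.89, SE 0.176, adjusted p = 0.00104) and than under ND + veh (0.55, SE 0.168, adjusted p = 0.03). Ddit3, an endoplasmic reticulum stress-induced C/EBP relative, was lower in HFD + eRapa than under ND + veh (-0.87, SE 0.225, adjusted p = 0.0104). Cebpd, Cebpe, Prox2 and Trim33 were not called in any comparison.

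Of 20 other liver transcription factors, 4 were lower and none higher in HFD + veh than under ND + veh, and 8 were higher and none lower in HFD + eRapa than under HFD + veh, with list medians of -0.38 and 0.39. Over all genes tested, 9.86% were lower and 16.0% higher between the diets, and 10.9% were higher and 21.1% lower with eRapa against HFD + veh. Tbx3, a T-box factor, had the largest change of the list in both (-2.28, SE 0.471, adjusted p = 0.00229 and 1.82, SE 0.457, adjusted p = 0.00513). Atf5, a stress-responsive leucine zipper factor, was lower on the high-fat diet (-0.84, SE 0.244, adjusted p = 0.0163). Ppara, the nuclear receptor of fatty acid oxidation, stood higher in HFD + eRapa than under HFD + veh (1.06, SE 0.236, adjusted p = 0.00236) and than under ND + veh (0.71, adjusted p = 0.0363). Gata6 was lower in HFD + eRapa than under ND + veh (-0.58, adjusted p = 0.00794).

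Target genes were called in both directions, and the shares of all genes called, given above, are the background for these counts. Of 20 HNF4A targets 2 were higher and 2 lower in HFD + veh, shares near or below those of all genes (16.0% and 9.86%): Otc, a urea cycle enzyme (0.80, adjusted p = 0.0019), F9, a clotting factor (0.54, adjusted p = 0.0117), Apoa1 (-0.68, adjusted p = 0.0411) and Mttp, which loads lipid onto lipoproteins (-0.37, adjusted p = 0.0192). With eRapa 4 were higher than under HFD + veh, among them Cyp8b1, a bile acid enzyme (0.81, adjusted p = 0.0255), and Apoa1 (0.71, adjusted p = 0.0236), and Otc was lower (-0.41, adjusted p = 0.0492). Cyp8b1 (0.79) and F9 (0.44) were also higher in HFD + eRapa than under ND + veh. Of 9 FOXA targets only Igfbp1, an insulin-repressed secreted protein, was called between the diets (-2.84, SE 0.582, adjusted p = 0.00216), and only Afp for eRapa against HFD + veh (-0.85, adjusted p = 0.0042). Both were lower in HFD + eRapa than under ND + veh (-1.68 and -0.69). Of 16 C/EBP targets 5 were higher in HFD + veh, led by the acute phase genes Lcn2 (3.15, SE 0.559, adjusted p = 0.000649) and Orm2 (1.74, adjusted p = 0.0211), while Cebpb was lower. In HFD + eRapa against HFD + veh none of the 16 was called by edgeR, and 2 had an unadjusted p under 0.05. In HFD + eRapa 4 of the 16 were higher than under ND + veh, with Lcn2 at 2.79 (adjusted p = 0.000976) and Orm2 at 2.33 (adjusted p = 0.00359).

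Of 17 early stress response genes 1 was lower in HFD + veh than under ND + veh (Hspa1b, -1.46, adjusted p = 0.0116), where 9.86% of all genes were lower. In HFD + eRapa against HFD + veh Hspa1b was higher (1.48, adjusted p = 0.00637) and 3 were lower, led by Nr4a1 (-1.39, adjusted p = 0.0176) and Atf3 (-1.10, adjusted p = 0.0491). Over all genes, 10.9% were higher and 21.1% lower in that comparison. Against ND + veh 2 were lower, Atf3 (-1.34, adjusted p = 0.0309) and Ier2 (-0.96, adjusted p = 0.0406), where 6.54% of all genes were lower. Of 12 hepatocyte markers Hpx was higher (1.03, adjusted p = 0.00244), and Cyp2e1 (-1.93, adjusted p = 0.00036) and Apoa1 were lower in HFD + veh. The shares of all genes were 16.0% higher and 9.86% lower. Cyp2e1 (2.04) and Apoa1 were higher in HFD + eRapa than under HFD + veh, where 10.9% of all genes were higher.

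Likeness between genes across the 24 libraries is described by Pearson's r of log2 CPM among 7972 genes with a mean log2 CPM of at least 3. Libraries share the groups and the other cells named above, so r is a description and carries no p. Foxa1 and Foxa2 were like each other (r = 0.888), and each was most like Phlda1 (r = 0.92 and 0.921). Foxa2 was next most like Thpo (r = 0.897), the thrombopoietin gene. Onecut1 was most like Plcxd2 (r = 0.868) and Cyp7b1, an oxysterol hydroxylase (r = 0.826), and its r with Foxa1 was 0.809. Cebpa was most like Oaf (r = 0.958) and St6galnac6 (r = 0.956), and Cebpb was most like Rbpms (r = 0.928) and Fbxw4 (r = 0.895). Hnf4a was most like AU022252 (r = 0.917) and Twnk (r = 0.915), Foxa3 was most like Mmaa (r = 0.911) and Ttc39c (r = 0.904), Prox1 was most like Fam214a (r = 0.91) and Sbk1 (r = 0.88), and Trim24 was most like Slc16a5 (r = 0.831) and Rpa1 (r = 0.747). Trim24 had a negative r with 7 of the 8 other genes, down to -0.53 with Foxa1.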

How the data were processed

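RNA from hepatocytes of 24 mice (8, 7 and 9 per group, 1 batch label) was analysed. The authors aligned reads to mm10 with STAR, filtered alignments with SAMtools 1.1.0 and made the deposited raw counts per gene with HTSeq 0.11.2. The deposited FPKM values were made by the authors with Cufflinks. Whether counting used strand is not given in the sources used here. Replicates are separate animals as numbered in the labels, and no pair of libraries agreed within sampling noise (chi-square per degree of freedom of at least 11.3).

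Counts were tested with edgeR 4.0.16 in R 4.3.3 (filterByExpr, TMM scaling, quasi-likelihood fit of all 24 libraries with group as the only term), with Benjamini-Hochberg adjustment over 13847 genes and a threshold of 0.05. SE is that of the log2 fold change. The Cebpb to Cebpa ratio used log2 CPM with a prior count of 2 and two-sided exact permutation tests (scipy 1.17.1). The study itself used DESeq2. Alternatives were DESeq2 1.42.0, DESeq2 size factors, no filter, only the groups compared, a replicate block, 3 marker or stress scores as covariates, limma 3.58.1 on log2 FPKM plus 1 or 0.1 (genes with a mean FPKM of at least 0.5), the omission of 2 libraries together and of each library in turn. The cholangiocyte score and the joint omission were chosen after seeing the data. Gene spans were read from the Gencode M21 annotation.

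The 9 genes and the 15 gene lists were chosen with earlier results of these data known. Named were the 9 genes, Alb, all relatives, up to 2 called genes with the largest and up to 2 with the smallest change of each list and comparison, overlapping genes, and the 2 genes most like each of the 9. The panels of CPM against the immune score were chosen after the data were seen. Some listed genes called in these comparisons are not reported here.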

Additional observations from a re-analysis of the deposited data

Results flagged for a closer look

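Trim24 in HFD + eRapa replicate 7 stood apart from the other animals of its group, at a log2 CPM of 5.58 against 4.70 in the next highest and 3.95 in the lowest animal, a gap of 0.538 of the whole range. Of 30 sets of values examined this way (9 genes and the Cebpb to Cebpa ratio in 3 groups), 1 stood apart, where chance alone gives about 1.5. Whether this animal differed in biology or in its library was not tested.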

How the results depend on the processing

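Of 945 refitted gene values, 860 kept their direction and their side of the threshold, 58 kept their direction and lost their call, 5 gained one and 22 changed sign. Between the diets 5 of the 9 genes were called, and this count was 3 without the filter, 2 with the immune marker score, 3 with the cholangiocyte score, 2 without ND + veh replicate 4 and HFD + veh replicate 6, and 3 to 5 when 1 library was left out, with 3 without ND + veh replicate 2, 3 or 6 or HFD + veh replicate 3, 4 or 6. For HFD + eRapa against HFD + veh the count of 5 fell to 1 with the immune marker score and was 4 to 6 when 1 library was left out. For HFD + eRapa against ND + veh the count of 0 became 1 with the immune marker score (Foxa2, -0.52, adjusted p = 0.0305). The cause of these shifts was not tested.

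No value that changed sign was called. With the immune marker score Cebpa moved to 0.17 between the diets and to -0.15 for eRapa against HFD + veh, and Prox1 moved to -0.37 in the latter. For HFD + eRapa against ND + veh, Foxa1 stood at 0.0036 without the filter, 0.033 with the early stress score, 0.056 with the cholangiocyte score and 0.020 without the 2 libraries, Cebpb at -0.078 with the cholangiocyte score, and limma on FPKM gave -0.027 for Hnf4a and -0.011 for Cebpa with either pseudocount. Without 1 library Prox1 ran from -0.11 to 0.27 between the diets, and Foxa1 from -0.11 to 0.069 for HFD + eRapa against ND + veh. The Cebpb to Cebpa ratio ran from 0.39 to 0.56 for eRapa against HFD + veh, passing without HFD + eRapa replicate 2 or 8 or HFD + veh replicate 5, and from -0.049 to 0.23 for HFD + eRapa against ND + veh.

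Replicate numbers belong to different animals: same-numbered libraries had a mean correlation of 0.316, -0.245 and -0.203 after removal of group means in the 3 comparisons, with at least 1 negative pair in each, so the block is only an alternative. With the replicate block 2 of the 9 genes were called between the diets, 4 between the groups on high-fat diet and 0 for HFD + eRapa against ND + veh, and the ratio differed by -0.32, 0.55 and 0.10, without a call. Counts per library of Onecut1 ran from 47 to 1548. Males of 1 strain and age and 1 dose were measured, and protein was not.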
